A study of Mus musculus with 12 samples.

Results

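The nuclear-encoded subunits of the mitochondrial respiratory chain were followed in mouse liver across diet and exercise. Members were taken by gene symbol: names beginning Nduf with the letter a, b, c, s or v and a number, the 4 Sdh genes, and names beginning Uqcr, Cox4 to Cox8 or Atp5. Of 94 matching names in a table of 55291 genes, 10 pseudogenes were left out and 5 genes did not reach 10 counts in at least 3 libraries. Complexes were assigned by these name groups alone, so Ndufa4 is counted in complex I. By name, 36 of the 79 members belong to complex I, 4 to complex II, 8 to complex III, 14 to complex IV and 17 to complex V. All 79 also passed the low-count filter of the test, which kept 18305 genes.

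The livers came from male C57BL/6 mice, an inbred laboratory strain, that entered the experiment at 6 weeks of age and had 1 week to adapt. One group received a normal diet (NC); the others received the high-fat diet D12492 and, after 8 weeks, were split into a group on the diet alone (HFD) and groups that also had at least 12 weeks of AE or RE exercise (HFD+AE and HFD+RE). What AE and RE abbreviate is not spelled out in the labels, and no genetic change is named for any group. Each group had 3 bulk RNA-seq libraries, named here by the numbers in their labels. NC has numbers 2, 4 and 5, HFD and HFD+AE each have 1, 2 and 3, and HFD+RE has 3, 4 and 5.

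The respiratory chain passes electrons from NADH through complex I, or from succinate through complex II, to coenzyme Q, then through complex III and cytochrome c to complex IV, where oxygen is reduced. Complexes I, III and IV pump protons across the inner mitochondrial membrane, and complex V, the ATP synthase, uses that gradient to make ATP. Each complex holds a few large catalytic subunits and, except for complex II, many small accessory subunits; in complexes I, III and IV and in complex V a few core subunits are encoded by the mitochondrial genome, and all others are made from nuclear genes. The liver is rich in mitochondria and uses this machinery to burn the fatty acids it takes up.

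Total counts per library ran from 44373214 to 77665729. The members took 0.802% to 0.903% of the counts in NC and 1.06% to 1.35% in HFD. Their share was 0.838%, 0.897% and 1.06% for HFD+AE 1, 2 and 3. For HFD+RE 3, 4 and 5 it was 0.848%, 1.21% and 1.26%. By this share HFD+AE 3 lay nearer to the HFD libraries and HFD+RE 3 nearer to the NC libraries than the others of their groups. HFD+AE 3 was the highest of its group for 69 of 79 members, and HFD+RE 3 the lowest of its group for 69 of 79. Other libraries were nearly as often at the end of their group, with NC 5 highest for 65 members, HFD 3 highest for 59, HFD 2 lowest for 59, HFD+RE 4 highest for 58 and HFD+AE 1 lowest for 61. Such counts were made over the members only, not over all genes. Values of HFD+AE 3 and HFD+RE 3 are given singly, and counts that rest on them are also given without them. Levels are in CPM (read counts scaled to library size after TMM normalization) or, to compare genes, in RPKM (the same per kilobase of the table's exon length).

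Per length, the highest mean levels over the 12 libraries were those of Cox6a1 (393 RPKM), Cox8a (253), Cox6b1 (237), Atp5a1 (236) and Cox4i1 (221). Cox6a1, Cox8a, Cox6b1 and Cox4i1 are the widely expressed isoforms of complex IV subunits, and Atp5a1 encodes the alpha subunit of the catalytic head of complex V. The tissue-restricted isoforms lay at the other end: Cox6b2, known from testis, at 0.182 RPKM and Cox7a1, known from heart and muscle, at 1.68 RPKM, while Cox4i2, Cox6a2, Cox7b2, Cox8b and Cox8c did not exceed 10 counts in any library. The median member level was 39.3 RPKM in NC and 57.6 RPKM in HFD for complex I, 89.8 and 79.1 for complex II, 92.1 and 141 for complex III, 69.4 and 118 for complex IV, and 42.6 and 63.9 for complex V. In HFD+AE these medians were 44, 99.5, 106, 77 and 50.6 RPKM, and in HFD+RE 52.2, 93.8, 128, 117 and 61.8 RPKM.

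In edgeR's quasi-likelihood test with Benjamini-Hochberg adjustment over all 18305 genes (called at an adjusted p under 0.05), 10 members rose in HFD against NC, 0 fell and 69 were not called. Over all genes tested, 15.6% were called, 8.38% as higher and 7.19% as lower. In either direction together, the share of members called was not above that of genes in general, whereas the share called as higher was. Both shares depended on the processing, as given in the closing section. The direction was more uniform than the calls: 65 of 79 members had a log2 change above 0, with a median of 0.65 beside 0.01 over all genes tested. In 58 members every HFD library lay above every NC library, and in 7 every HFD library lay below; over all genes these shares were 23.9% and 22.1%. At an unadjusted p under 0.05, 47 members passed, beside 34.7% of all genes. The median log2 change was 0.73 in complex I, 0.21 in complex II, 0.62 in complex III, 0.77 in complex IV and 0.62 in complex V, and within complexes the range was wide, from -1.01 for Sdha to 1.45 for Cox6c2.

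**Figure D1:**
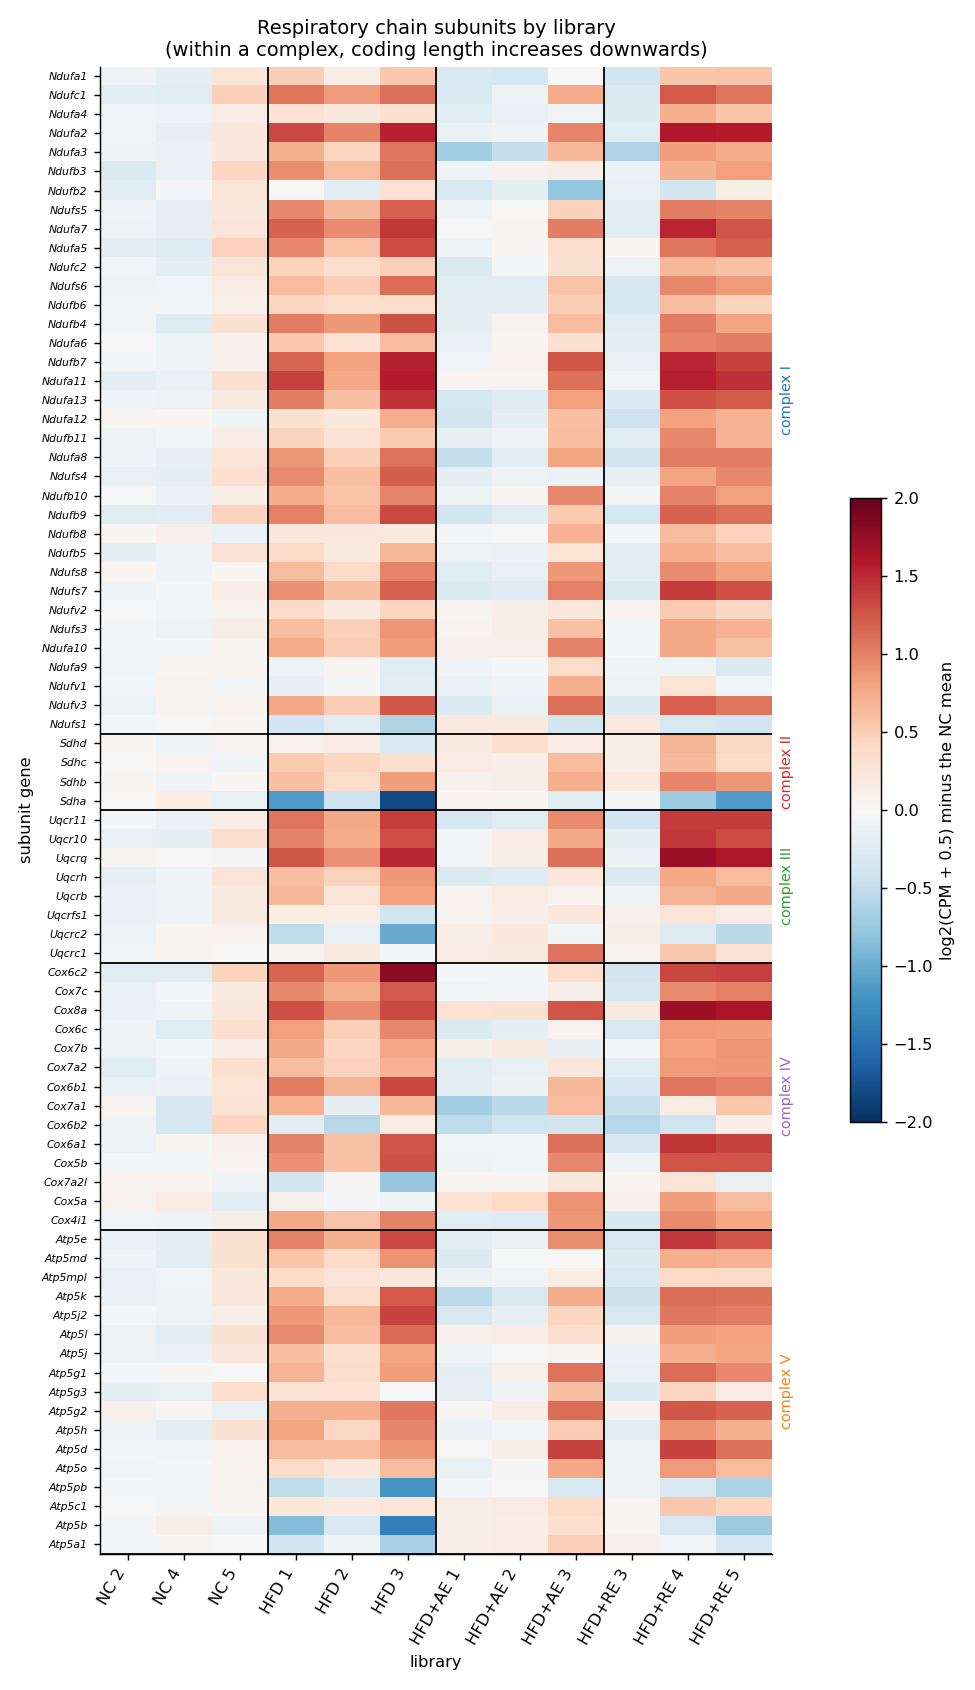
Each row is 1 of 78 members and each column 1 of the 12 libraries; the colour gives log2(CPM + 0.5) minus the mean of the 3 NC libraries, and within a complex the coding length increases downwards (Cox6c2, with no coding length, heads complex IV). HFD 1, 2 and 3 and HFD+RE 4 and 5 are red for most short subunits and blue for Sdha, Atp5b and Atp5pb, whereas HFD+AE 1 and 2 and HFD+RE 3 resemble NC.

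In complex I, the NADH dehydrogenase, 6 of 36 members rose in HFD against NC and none of the other 30 was called. The 6 are all accessory subunits. Ndufs4, whose product sits at the NADH-oxidising end, stood at 38.0, 36.4 and 53.3 CPM in NC and at 81.4, 64.0 and 97.8 CPM in HFD; its fitted log2 change was 0.93 (SE 0.27, adjusted p = 0.037). Ndufa11, a subunit of the membrane arm, went from 10.7, 11.1 and 15.4 CPM to 32.4, 21.3 and 37.3 CPM (log2 change 1.29, SE 0.40, adjusted p = 0.046). For both genes the lowest HFD library lay above the highest NC library. Ndufb4 (1.05, adjusted p = 0.035), Ndufb3 (0.88, 0.038), Ndufs5 (0.95, 0.043) and Ndufa2 (1.30, 0.049) rose by similar log2 amounts. Of the 29 accessory subunits, 28 had a log2 change above 0, with a median of 0.78.

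The core subunits of complex I, which carry the flavin and the iron-sulfur clusters, were split. Of 7, 4 had a log2 change above 0 and the median was 0.34. Ndufs1, the largest iron-sulfur subunit, was at 95.6, 96.9 and 98.9 CPM in NC and at 74.2, 84.2 and 63.9 CPM in HFD, with a log2 change of -0.39 (SE 0.21, adjusted p = 0.2). Its groups did not overlap, but the change did not pass the test. Ndufv1, the flavin-binding subunit, differed by -0.15 (adjusted p = 0.66), and the accessory subunit Ndufb8 by 0.20 (0.52). The smaller core subunit Ndufs7 had a log2 change of 0.93 (adjusted p = 0.13), from 38.1, 39.6 and 44.6 CPM to 77.1, 62.2 and 92.8 CPM.

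Complex II, succinate dehydrogenase, also belongs to the tricarboxylic acid cycle and is made wholly from nuclear genes. Its 4 subunits did not move together. Sdha, the flavoprotein that oxidises succinate, was at 506, 566 and 460 CPM in NC and at 231, 383 and 145 CPM in HFD. Every HFD library lay below every NC library, and the log2 change of -1.01 (SE 0.33, adjusted p = 0.053) was the lowest of all 79 members without passing the threshold. Sdhb, the iron-sulfur subunit that pairs with Sdha, was at 144, 135 and 145 CPM in NC and at 215, 183 and 253 CPM in HFD (log2 change 0.62, SE 0.24, adjusted p = 0.09). The membrane anchor Sdhc was also higher in all 3 HFD libraries, at 204, 191 and 180 CPM against 143, 150 and 135 CPM (0.43, SE 0.19, adjusted p = 0.14). The other anchor, Sdhd, overlapped between the groups, at 151, 160 and 115 CPM in HFD and 146, 136 and 149 CPM in NC (-0.02, SE 0.19, adjusted p = 0.96).

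The promoters of Sdha, Sdhb and Sdhd are shown because the members of this complex differed in direction. No promoter was found for Sdhc. Ndufa11 and Cox8a, called members from complexes I and IV, are shown as well. Each run holds 80 bases directly upstream of the outermost annotated start, that of RefSeq or of the gene model used for the counts. The sequences come from RefSeq (GRCm38.p6) and are given 5′ to 3′ on the gene's strand. Capitals mark a match on either strand to the NRF1 motif or to the ETS motif CCGGAAG. NRF1 is a factor known to bind respiratory chain promoters, and the ETS family includes GABPA. The stretches are Sdha at chr13:74350281-74350360 (minus strand), Sdhb at chr4:140961123-140961202 (plus), Sdhd at chr9:50603850-50603929 (minus), Ndufa11 at chr17:56717682-56717761 (plus) and Cox8a at chr19:7217617-7217696 (minus).
Sdha: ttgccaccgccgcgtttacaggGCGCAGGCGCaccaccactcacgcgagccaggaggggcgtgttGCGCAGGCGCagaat
Sdhb: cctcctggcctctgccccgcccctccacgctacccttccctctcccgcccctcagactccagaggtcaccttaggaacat
Sdhd: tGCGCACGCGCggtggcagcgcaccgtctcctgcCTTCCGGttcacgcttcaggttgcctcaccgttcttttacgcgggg
Ndufa11: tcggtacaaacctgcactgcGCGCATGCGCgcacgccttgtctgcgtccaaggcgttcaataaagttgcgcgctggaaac
Cox8a: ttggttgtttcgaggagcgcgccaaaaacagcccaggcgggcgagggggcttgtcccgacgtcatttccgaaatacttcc

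Sdha, the member with the lowest change, holds a pair of NRF1 matches in its stretch, Sdhd holds 1 NRF1 and 1 ETS match, and Ndufa11, which rose, holds 1 NRF1 match. The stretches of Sdhb and Cox8a hold neither motif, but both genes have an ETS match elsewhere in the longer window described next. Promoters from 250 bases before to 50 after the start were found for 66 of the 79 members. In these windows the NRF1 motif occurred in 17 members (25.8%), beside 5.2% of 27025 genes with a promoter and 10.2% of 11928 tested genes. The ETS motif also occurred in 17 (25.8%, beside 9.9% and 18.0%), and the YY1 motif AAGATGG in 11 (16.7%, beside 7.3% and 7.9%). A YY1 match can overlap an ETS match by the letters AAG, and such overlaps were not removed. The median log2 change of HFD against NC was 0.78 for members with the NRF1 motif and 0.64 for the 49 without it, and for ETS it was 0.74 and 0.64. A match is a run of letters and was not tested for binding.

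**Figure D2:**
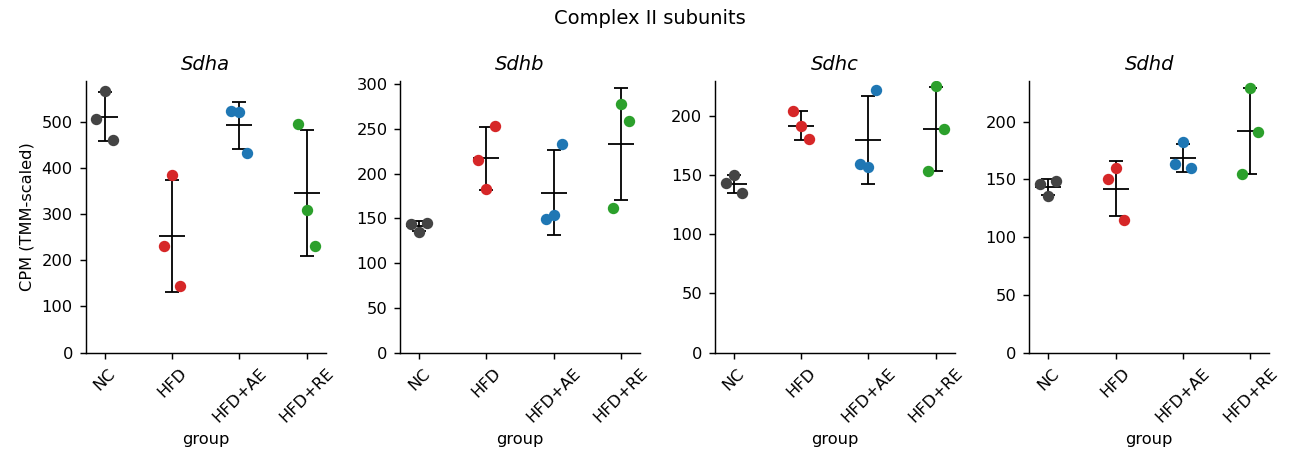
The level of each complex II subunit in CPM is plotted for the 12 libraries by group; points are libraries, and the cross and bars give the mean and SD of 3 libraries. Sdha is lower in HFD 1, 2 and 3 (231, 383 and 145 CPM) than in any NC library, while Sdhb is higher (215, 183 and 253 CPM).

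In complex III, the cytochrome bc1 complex, no member of 8 was called in HFD against NC, and 6 passed at an unadjusted p under 0.05. All 5 small subunits were higher in every HFD library than in any NC library, with a median log2 change of 1.01. Uqcrq, a small subunit that contacts cytochrome b, was at 147, 146 and 140 CPM in NC and at 344, 273 and 411 CPM in HFD (log2 change 1.25, SE 0.41, adjusted p = 0.053). Uqcrb, another small subunit, differed by 0.59 (adjusted p = 0.084). The large core protein Uqcrc2 lay the other way, at 136, 149 and 154 CPM in NC and 102, 133 and 72.2 CPM in HFD (-0.52, SE 0.23, adjusted p = 0.13), and its groups did not overlap. Uqcrfs1, the Rieske iron-sulfur protein, differed by -0.01 (adjusted p = 0.97).

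In complex IV, cytochrome c oxidase, 3 of 14 members rose in HFD against NC. Cox8a, the liver form of the smallest subunit, was at 76.6, 79.1 and 98.0 CPM in NC and at 207, 163 and 210 CPM in HFD; its fitted log2 change was 1.19 (SE 0.36, adjusted p = 0.042). Cox7c went from 107, 115 and 136 CPM to 232, 196 and 279 CPM (0.98, SE 0.29, adjusted p = 0.038). Cox6c2, a copy of Cox6c, had the largest change of any member (1.45, SE 0.45, adjusted p = 0.045) at a low level, 1.91, 1.89 and 3.31 CPM in NC against 5.76, 4.62 and 9.15 CPM in HFD. Reads of Cox6c2 and Cox6c cannot be fully told apart, and Cox6c itself differed by 0.75 (adjusted p = 0.084).

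The isoforms of complex IV subunits did not all go the same way. Cox4i1, known for the enzyme's inhibition by ATP, was at 247, 244 and 278 CPM in NC and 430, 378 and 512 CPM in HFD (log2 change 0.78, adjusted p = 0.12). Cox5b, a zinc-binding subunit, differed by 0.96 (adjusted p = 0.08) and Cox5a, the other subunit facing the matrix, by -0.02 (0.95). Among the Cox7a forms, Cox7a2 differed by 0.57 (adjusted p = 0.14), Cox7a1 by 0.64 (0.47) and Cox7a2l by -0.33 (0.24). Cox7a2l is known to join complexes III and IV into supercomplexes. It was at 66.6, 66.2 and 61.2 CPM in NC and at 49.97, 65.9 and 38.2 CPM in HFD, and the groups overlapped. The testis form Cox6b2, at 0.58 CPM or less in every library, differed by -0.61 (adjusted p = 0.61).

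In complex V, 1 of 17 members rose in HFD against NC. Atp5l, subunit g of the membrane part, went from 35.4, 32.8 and 47.3 CPM to 73.6, 58.7 and 83.8 CPM (log2 change 0.90, SE 0.23), with the smallest adjusted p of all members (0.023). The catalytic beta subunit, Atp5b, was at 915, 1032 and 880 CPM in NC and 515, 758 and 364 CPM in HFD (-0.79, SE 0.27, adjusted p = 0.06). Its HFD libraries all lay below the NC libraries, but the change did not pass the test. Atp5a1, the alpha subunit, differed by -0.36 (adjusted p = 0.22) and the stator subunit Atp5pb by -0.61 (0.081). Within the same catalytic head, the small epsilon subunit Atp5e was higher, at 145, 120 and 182 CPM in HFD and 65.9, 63.6 and 90.5 CPM in NC (1.02, adjusted p = 0.097). The stalk subunit Atp5o differed by 0.42 (adjusted p = 0.29) and the membrane subunit Atp5k by 0.82 (0.16).

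The 3 genes for the identical c-ring protein, Atp5g1, Atp5g2 and Atp5g3, had log2 changes of 0.64 (adjusted p = 0.2), 0.83 (0.089) and 0.18 (0.63). Atp5g3 was the most abundant of them in CPM, at 228, 233 and 329 in NC and 316, 318 and 262 in HFD, and its groups overlapped. All 5 small membrane subunits of complex V were above 0, with a median of 0.82, as were 3 of 4 stalk subunits, with a median of 0.50.

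Gene length ran through these differences. Of the 78 members with a coding length in the reference, the 46 with under 450 coding bases had a median log2 change of 0.80 in HFD against NC, and 43 were above 0. The 21 members from 450 to under 900 bases had a median of 0.62, and the 11 with 900 or more bases had a median of -0.17, with 8 of 11 below 0 and 6 with every HFD library below every NC library. The same order held for protein-coding genes in general, with medians of 0.56 over 923 genes, 0.22 over 2761 and -0.15 over 10234. Across members, Spearman's rho of the change with coding length was -0.49 (n = 78), beside -0.33 over 13918 protein-coding genes. These genes share the same 12 libraries and are not independent. Of the 10 members that rose, 8 had under 450 coding bases, Ndufs4 had 525 and Cox6c2 had no coding length.

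A smooth trend of each library on the table's exon length was also removed before the test. A trend on coding length was not removed. The 2 lengths can differ widely: Atp5l has 6443 exon and 309 coding bases, and Ndufb7 has 4522 and 411. With the exon-length trend removed, the median member change in HFD against NC was 0.42 in place of 0.65, and 61 of 79 members were above 0. The calls then numbered 2: Atp5l rose (log2 change 1.04, adjusted p = 0.023), and Sdha fell by 1.05 (adjusted p = 0.046). With GC content removed as well, 9 were called; Ndufb7, Atp5l, Ndufs4, Ndufb4, Ndufa11 and Cox8a rose, and Sdha (-1.02, adjusted p = 0.038), Atp5b (-0.80, 0.042) and Atp5pb (-0.73, 0.05) fell. With the length trend alone removed, Sdha, Atp5b (-0.81, adjusted p = 0.054), Uqcrc2 (-0.70, 0.075) and Atp5pb (-0.64, 0.066) lay as low as before or lower, whereas Ndufs1 moved to -0.20 (0.39). The higher values of most short members became smaller, as for Cox8a (0.81, adjusted p = 0.084) and Ndufs4 (0.75, 0.053).

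**Figure D3:**
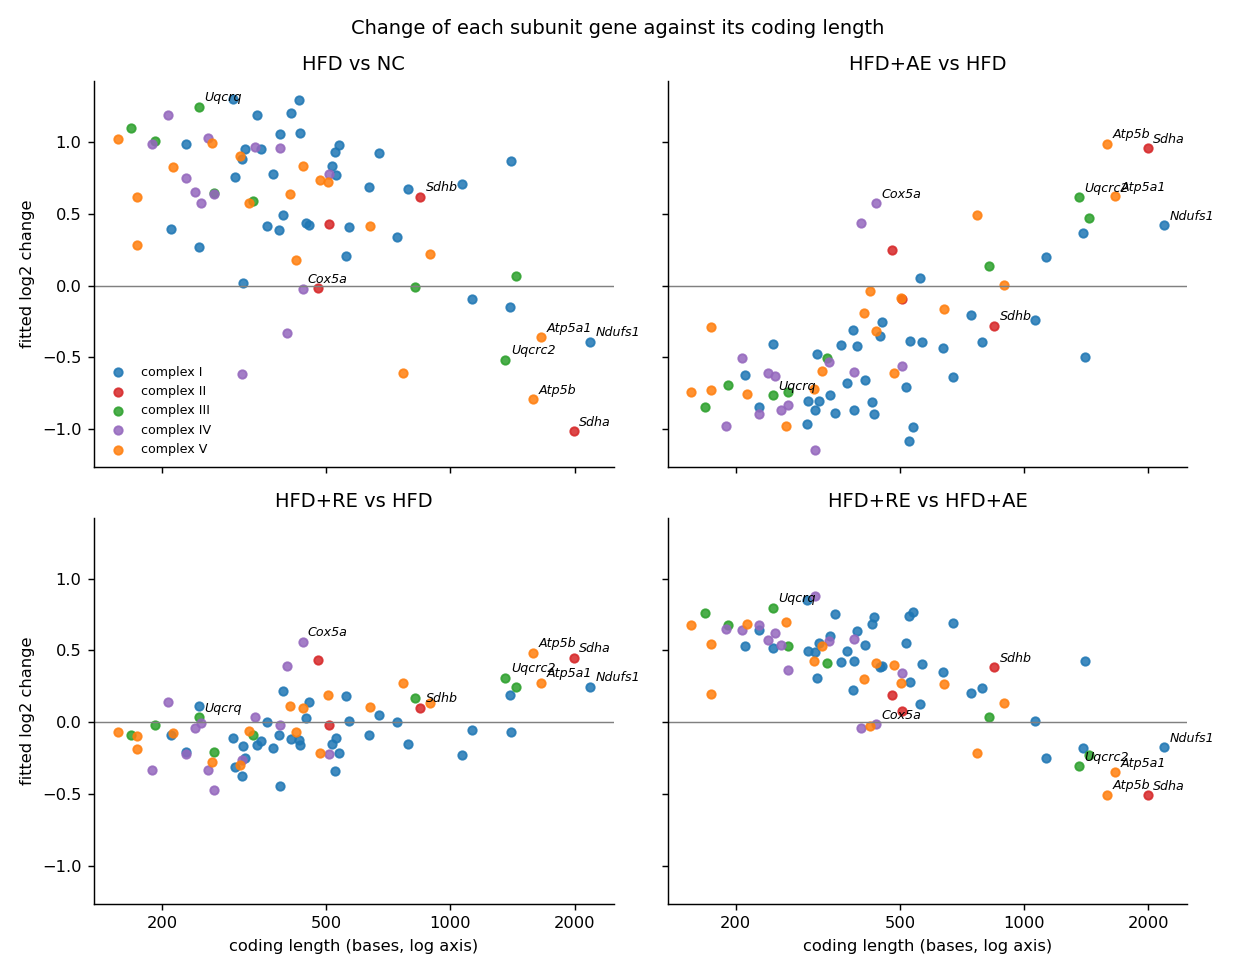
Each point is 1 of 77 members, placed by coding length (bases, log axis) and by the fitted log2 change in each of 4 comparisons, and coloured by complex. Short members lie above 0 in HFD vs NC and below 0 in HFD+AE vs HFD, and the long members Sdha, Atp5b, Uqcrc2 and Ndufs1 lie on the opposite side.

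**Figure D4:**
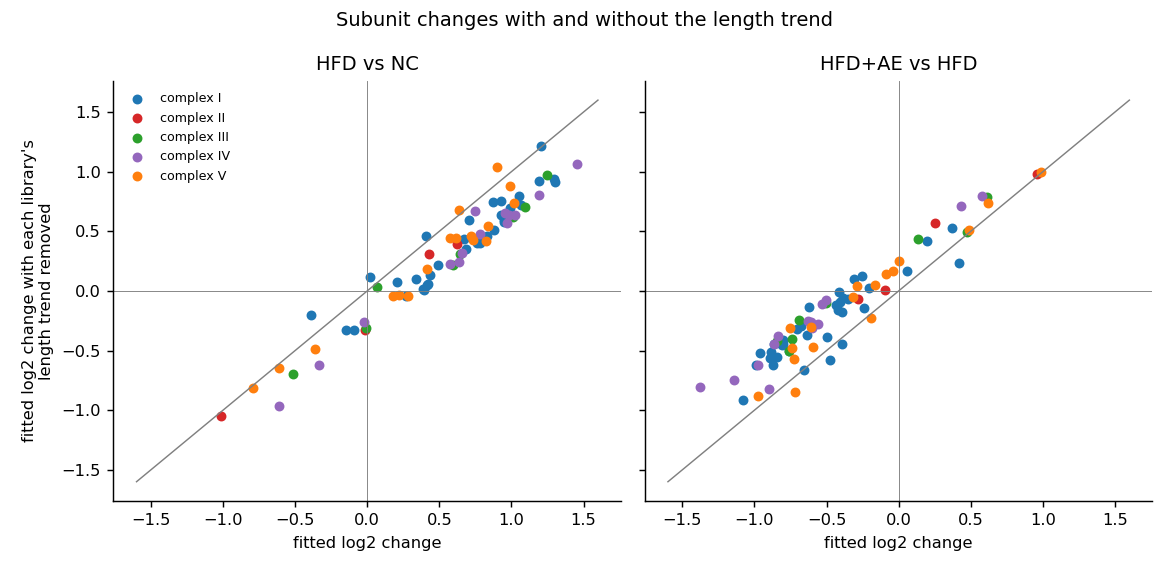
The fitted log2 change of each of 78 members is plotted against its value after removal of each library's exon-length trend, for HFD vs NC and HFD+AE vs HFD. The grey diagonal marks equal values. Most members move towards 0 (median 0.42 in place of 0.65 in HFD vs NC), and Sdha and Atp5b stay on the diagonal.

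Both genes of a ratio are read from the same library, so ratios of counts per base of exon length need no scaling between libraries. Dividing by length does not remove a length trend that differs between libraries. Over all genes tested, the rank correlation of a library's deviation from the mean with exon length was 0.24, 0.23 and 0.13 in NC. It was -0.28, -0.13 and -0.29 in HFD, 0.35, 0.34 and -0.05 in HFD+AE, and 0.29, -0.31 and -0.3 in HFD+RE. The part of this trend in the ratios was not tested. The ratios were chosen after the values were seen and are given as a description. Sdha over Sdhb was 1.91, 2.28 and 1.72 in NC and 0.583, 1.14 and 0.31 in HFD. With exercise, HFD+AE 1, 2 and 3 had ratios of 1.9, 1.84 and 1.01, while HFD+RE 3, 4 and 5 had 1.66, 0.604 and 0.485. HFD+AE 1 and 2 and HFD+RE 3 lay in or near the NC range, and HFD+AE 3 and HFD+RE 4 and 5 in the HFD range.

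A similar division of NC and HFD appeared in the other complexes. Atp5b over Atp5e was 5.75, 6.72 and 4.03 in NC, 1.47, 2.63 and 0.829 in HFD. The HFD+AE libraries had 6.81, 6.53 and 3.55, and the HFD+RE libraries 6.96, 1.6 and 1.35. Uqcrc2 over Uqcrq was 0.664, 0.731 and 0.791 in NC, 0.213, 0.348 and 0.126 in HFD. It reached 0.821, 0.77 and 0.328 with AE exercise, the last of these (HFD+AE 3) inside the HFD range, and 0.85, 0.185 and 0.162 with RE exercise. Ndufs1 over Ndufa2 was 0.182, 0.201 and 0.156 in NC and 0.0542, 0.0773 and 0.0403 in HFD. In all of these the NC and HFD libraries did not overlap.

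Pairs of similar coding length were read as well, again chosen after the values were seen. Cox5a (438 coding bases) over Cox5b (387) was 0.399, 0.421 and 0.309 in NC and 0.208, 0.24 and 0.146 in HFD. Atp5b over Atp5a1, the partners of the catalytic hexamer with 1587 and 1659 coding bases, was 0.912, 0.993 and 0.867 in NC and 0.665, 0.789 and 0.56 in HFD. In both pairs, too, every HFD library lay below every NC library. Exon lengths were less alike, 2101 bases for Cox5a and 1587 for Cox5b, and 4237 for Atp5b and 3135 for Atp5a1. Both Cox5a and Cox5b share sequence with other genes, so their single values are uncertain. The part of length in these ratios was not tested. Sdha over Sdhd, a pair of unequal length (1992 and 477 coding bases), was 1.03, 1.25 and 0.924 in NC and 0.458, 0.715 and 0.376 in HFD.

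**Figure D5:**
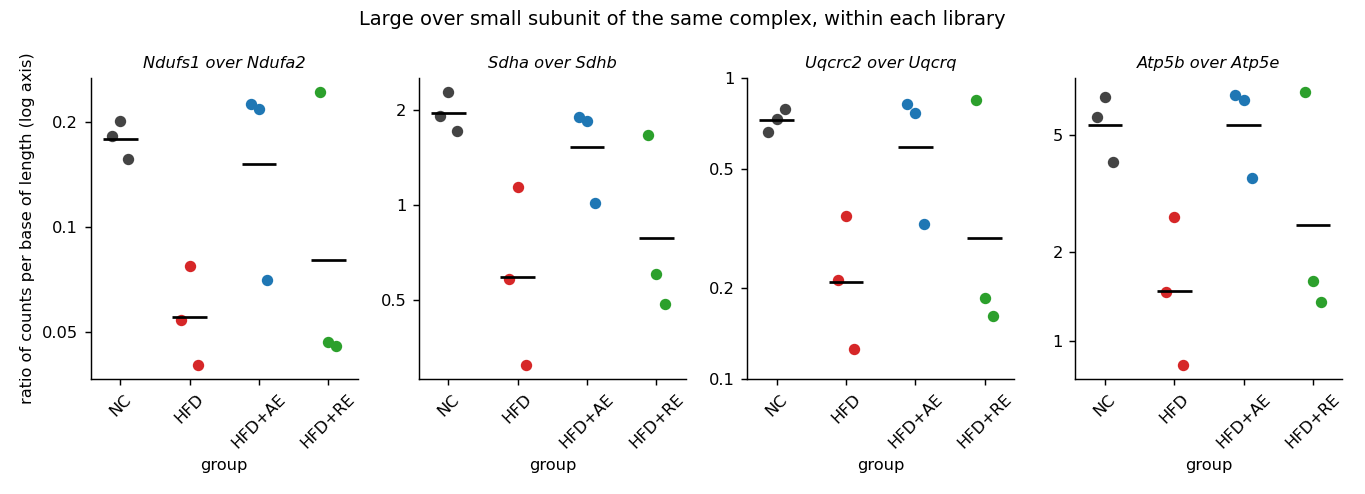
For 1 pair of a large and a small subunit in each of complexes I, II, III and V, the ratio of counts per base of exon length is plotted by group on a log axis; points are libraries and bars the mean of the log ratios. HFD 1, 2 and 3 lie below NC in all 4 panels, and HFD+AE 3 and HFD+RE 3 lie apart from the other libraries of their groups.

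Exercise of the AE type was compared with the high-fat diet alone, and these HFD libraries are the same ones that entered the comparison with NC. No member was called in HFD+AE against HFD, where 0.0492% of all genes were, and 28 passed at an unadjusted p under 0.05 (26.4% of all genes). Members above 0 numbered 16 of 79, with a median log2 change of -0.50 beside 0.00 over all genes tested. In 24 members every HFD+AE library lay below every HFD library and in 5 above, where 16.3% and 15.8% of all genes did so. The complex medians were -0.49 for I, 0.08 for II, -0.60 for III, -0.62 for IV and -0.29 for V.

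The 4 highest changes in this comparison were those of large subunits. Atp5b was at 1026, 1037 and 1185 CPM in HFD+AE, above all 3 HFD libraries (log2 change 0.99, SE 0.27, adjusted p = 0.067). Sdha was at 522, 521 and 433 CPM, also above all 3 (0.96, SE 0.33, adjusted p = 0.1). Atp5a1 (0.62, adjusted p = 0.091) and Uqcrc2 (0.61, 0.12) followed, then the short Cox5a (0.57, 0.13), and the longest member, Ndufs1, had 0.42 (0.22). At the other end were Cox6c2 (-1.38, adjusted p = 0.091), Cox6b2 (-1.14, 0.43) and Ndufs4 (-1.08, 0.061). Ndufs4 was at 37.0, 39.3 and 38.7 CPM in HFD+AE, below each HFD library and inside the NC range. None of these differences passed the threshold.

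The third HFD+AE library differed from the others by subunit. It was high for Uqcrc1 (362 CPM against 192 and 193), Atp5d (346 against 135 and 148) and Cox4i1 (465 against 216 and 213), and close to the others for Ndufs4, Cox7c (128 against 115 and 116) and Atp5l (47.6 against 41.0 and 42.5). Set against the NC mean on the log2(CPM + 0.5) scale, the median member was at -0.11, -0.03 and 0.58 in HFD+AE 1, 2 and 3. For the 11 members with 900 or more coding bases HFD+AE 3 was at 0.43, where the HFD libraries were at -0.20, -0.04 and -0.31. It lay above every NC library for 57 of 79 members and below every NC library for 6, among them Sdha (433 CPM), Ndufs1 (75.3 CPM), Atp5pb (191 CPM) and Cox7b (91.6 CPM). The same counts were not made over all genes, so a shift of the whole library cannot be told apart here. By length class, the median change of HFD+AE against HFD was -0.71 under 450 bases, -0.28 from 450 to under 900 and 0.42 at 900 or more, and Spearman's rho with coding length was 0.67 over 78 members and 0.34 over 13918 genes. With the exon-length trend removed the median was -0.25, with 24 of 79 above 0 and 0 called.

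RE exercise showed little difference from the diet alone. No member was called in HFD+RE against HFD (0.0109% of all genes were), 2 passed at an unadjusted p under 0.05 (8.77% of all genes), and the median log2 change was -0.07 beside 0.04 over all genes, with 31 of 79 members above 0. Cox5a was the member that did not overlap between the groups, at 52.74, 88.9 and 76.9 CPM in HFD+RE and 52.67, 48.4 and 47.0 CPM in HFD. HFD+RE 3 and HFD 1 were thus nearly equal. The log2 change of Cox5a was the highest (0.56, SE 0.22, adjusted p = 0.47), and it is 1 of the members with uncertain values. Over all genes 7.15% lay apart as higher, and no member lay apart as lower (6.99% of all genes). Atp5b (0.48, adjusted p = 0.63), Sdha (0.45, 0.72) and Sdhd (0.44, 0.53) came next. Cox7a1 (-0.47, adjusted p = 0.84), Ndufb4 (-0.44, 0.69) and Cox6c2 (-0.38, 0.82) were lowest.

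The RE libraries were far from alike, so the group mean describes none of them. Against the NC mean, the median member was at -0.17 in HFD+RE 3, 0.84 in HFD+RE 4 and 0.79 in HFD+RE 5, where HFD 1, 2 and 3 were at 0.64, 0.42 and 0.86. Ndufa11 was at 11.7 CPM in HFD+RE 3 and at 37.0 and 34.7 CPM in HFD+RE 4 and 5. Sdha was at 495 CPM in HFD+RE 3, inside the NC range, and at 309 and 231 CPM in HFD+RE 4 and 5, inside the HFD range.

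Between the exercise types, no member was called in HFD+RE against HFD+AE, where 0% of genes were, and 11 passed at an unadjusted p under 0.05 (8.02% of all genes). The median log2 change was 0.42 beside 0.01 over all genes, with 66 of 79 members above 0, from -0.51 for Sdha to 0.997 for Cox6c2. No member lay apart as higher (5.88% of all genes did), and Ndufa9, Atp5a1 and Atp5b lay apart as lower (5.4%). Spearman's rho with coding length was -0.67 over 78 members.

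Without HFD+AE 3 and HFD+RE 3, libraries that stand apart in opposite directions, the spread shared by all groups became smaller and many members were called. In HFD against NC 59 of 79 were then called, 55 higher and 4 lower (Sdha, Atp5b, Atp5pb and Ndufs1), among 6258 of 18902 genes tested. In HFD+AE against HFD 58 were called, 54 lower and 4 higher (Sdha, Atp5b, Uqcrc2 and Ndufs1), among 4253 genes. HFD+RE against HFD still gave 0 called, where 5 of all genes were. HFD+RE against HFD+AE gave 60, of which 59 were higher, among 4170 of 18902 genes tested. Because these libraries were singled out for how they lie, and each remaining exercise group has 2 libraries, these counts show how much the tests rest on 2 of the 12 libraries.

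Other genes of the same machinery were read from fixed lists. Of the 13 subunits encoded by the mitochondrial genome, 4 rose in HFD against NC and 0 fell, where 15.6% of all genes were called. The median log2 change of the 13 was 0.61. Those that rose were mt-Nd4l (2.10, adjusted p = 0.0043), mt-Nd3 (1.42, 0.021), mt-Co2 (1.57, 0.027) and mt-Co3 (2.48, 0.039). In HFD+AE against HFD mt-Nd4l fell by 2.36 (adjusted p = 0.038). Of 8 tested subunits outside the naming rule, Ndufa4l2, a relative of Ndufa4, rose in HFD against NC (1.56, adjusted p = 0.027), as did Atpif1, the inhibitor of ATP hydrolysis by complex V (1.004, 0.048). Neither list had another call in HFD+AE against HFD, HFD+RE against HFD or HFD+RE against HFD+AE.

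Over all genes tested 15.6% were called in HFD against NC, and none of the next 6 lists had a larger share called. Among 17 complex I assembly factors, Ndufaf3 rose in HFD against NC (1.04, adjusted p = 0.018) and Foxred1 fell by 0.55 (0.038). Among 34 tested assembly factors of complexes II to V, Coa6, a copper-handling factor of complex IV, rose (1.27, adjusted p = 0.0097), Cmc1 rose (0.73, 0.038) and Lrpprc, which stabilises mitochondrial mRNAs, fell by 0.86 (0.033). For coenzyme Q synthesis 2 of 13 rose, Coq4 (0.94, adjusted p = 0.033) and Coq7 (0.83, 0.027). Among 14 regulators, the transcription factor Yy1 fell by 0.59 (adjusted p = 0.028) and the mitochondrial DNA polymerase gene Polg fell by 0.86 (0.025). Of 15 genes of the tricarboxylic acid cycle, Pdhb, part of pyruvate dehydrogenase, fell by 0.61 (adjusted p = 0.043). Of 17 import and carrier genes, Tomm40 (0.97, adjusted p = 0.041) and Slc25a4 (0.76, 0.042) rose. The list medians were 0.31 and 0.21 for the assembly factors and 0.16 for coenzyme Q synthesis. They were -0.31 for regulators, -0.21 for the tricarboxylic acid cycle and 0.00 for import and carriers. None reached the 0.65 of the members, but the lists were not matched to the members by gene length. In the same comparison the median over protein-coding genes was 0.56 under 450 coding bases and -0.15 at 900 or more. No gene of these 6 lists was called in a comparison with an exercise group.

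Other measures also differed between NC and HFD, but they did not follow the members in every library. The share of counts on the mitochondrial ribosomal RNA genes was 0.708% to 0.924% in NC, 1.76% to 3.26% in HFD, and 0.771% to 0.867% in HFD+AE. It was 0.685%, 1.11% and 1.71% in HFD+RE 3, 4 and 5. HFD+AE 3, with its median member at 0.58 against the NC mean, had 0.842%, inside the NC range. HFD+RE 4 and 5, with their median member at 0.84 and 0.79, lay below every HFD library in this share. The summed level of 9 hepatocyte markers was 120000 to 137000 CPM in NC and 66000 to 94100 CPM in HFD, and 4 of 9 fell in HFD against NC. Of all genes, 8.38% were called as higher and 7.19% as lower in that comparison. Of 10 stellate and fibroblast markers, 6 rose (125 to 144 CPM summed in NC, 240 to 361 CPM in HFD). Of 8 B and plasma cell markers 5 rose (27.9 to 45.2 CPM against 42.6 to 167 CPM), as did 2 of 10 T and NK cell markers (4.27 to 11.1 CPM against 4.71 to 39.1 CPM). In the endothelial list 3 of 8 fell (225 to 281 CPM against 120 to 171 CPM), and of 10 Kupffer cell and macrophage markers 1 fell (281 to 455 CPM against 124 to 293 CPM).

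Of 8 adipocyte markers, 3 were high enough to test and all 3 rose in HFD against NC, with the summed level at 6.58 to 12.1 CPM in NC and 37.4 to 77.8 CPM in HFD; 4 of the 8 were at 0 in all NC libraries and 3 of 8 in all HFD libraries. Skeletal muscle markers summed to 1.28 CPM or less in every library. Of 6 erythroid markers 1 fell, although the list's median log2 change was 1.002 and its sum was 160 to 301 CPM in NC and 273 to 495 CPM in HFD. No cholangiocyte marker of 5 tested was called. The lists also differed between HFD+AE and HFD: the hepatocyte sum was 117000 to 137000 CPM in HFD+AE, the endothelial sum 225 to 329 CPM and the adipocyte sum 7.97 to 9.22 CPM. In that comparison 1 adipocyte marker fell (median log2 change of 3 tested, -4.05), and no marker of another list was called. In HFD+RE the hepatocyte sum was 97300 to 123000 CPM and the adipocyte sum 10.7 to 15.4 CPM, with no marker called against HFD. The part of these cell types and of the mitochondrial RNA share in the members' values was not tested, and in bulk liver fewer cells of a type cannot be told apart from less RNA per cell.

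Several members share sequence with other genes, and their single values are uncertain. A transcript of 28 members matched another gene over at least 150 bases at 95% identity or more, mostly pseudogene copies, and 10 members share at least 10% of their exon bases with a neighbouring gene, 31 members in all; Cox6c2, which a Cox6c transcript matches, makes 32. Of the 10 members that rose in HFD against NC, 7 are among them, and Ndufa11, Ndufs4 and Cox8a are not. The 47 members without such overlap had a median log2 change of 0.64, with 37 above 0, and the other 32 had a median of 0.70. Sdha, Sdhb, Sdhc, Sdhd, Atp5b and Ndufs1 are among the 47, whereas Uqcrc2, Atp5pb and Cox5a are among the 32.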

How the data were processed

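The authors deposited 1 table of whole-number read counts per gene, not normalized, with coordinates and exon length; the file headers name featureCounts 2.0.6. The submitters' processing notes add fastp, HISAT2 2.2.1, DESeq2 1.40.1 and the mm10 build. Whether counting used strand, and how multi-mapping reads were handled, is not given in the sources used here. Summing over exons hides isoforms, and the exon length of a gene with long rare isoforms makes its RPKM too low.

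All 12 libraries were fitted in 1 edgeR 4.0.16 model (R 4.3.3; robust quasi-likelihood F-test, TMM scaling, default low-count filter by group), with a mean per group and a shared spread. Genes were called at a Benjamini-Hochberg adjusted p below 0.05 over 18305 genes; SE is that of the log2 change. With 3 libraries a group and nothing that names separate animals, p-values measure only how these samples vary, and part of that may be technical. All pairs of libraries of a group differed beyond sampling noise. DESeq2 1.42.0, other scaling, filters, length and GC trends and left-out libraries were alternatives, and the test was checked on simulated data. Coding lengths came from GENCODE M21 (78 members at the table's coordinates) and promoters from RefSeq (GRCm38.p6).

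Members, lists and alternatives were chosen with earlier results of these data known. Named genes are, by rule, up to 3 called members per complex and comparison, fixed anchors, isoforms, the 3 highest and 3 lowest changes, and up to 3 called genes per list. Outside the rule, and chosen after their values were seen, are Ndufs7, Ndufs5, Ndufa9, Uqcrq, Uqcrc1, Atp5e, Atp5d, Atp5pb, Ndufb7, Cox6c, mt-Co3 and the ratios. Values of 1 member are not reported here singly, in text or figures; it is kept in the counts and medians.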

Additional observations from a re-analysis of the deposited data

How the results depend on the processing

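For HFD against NC the 10 calls among members stood beside 2851 of 18305 genes. They became 28 with DESeq2 (25 higher, 3 lower), beside 4364 of 18305 genes, and 52 with only the 2 groups compared, beside 4928 of 17173. With the exon-length trend removed 2 were called, beside 2587 of 18305 genes, and with RLE scaling 11, beside 2903 of 18305. Without the low-count filter 13 were called, beside 2797 of 31348, and with length and GC trends removed 9, beside 3358 of 18271. Leaving out 1 library gave 0 to 41 calls: 0 without NC 2, NC 4, HFD 1 or HFD 3, 2 without HFD+AE 2, 6 without NC 5 or HFD+AE 1, 20 without HFD 2, 23 without HFD+AE 3 and 41 without HFD+RE 3. Calls over all genes in these fits ran from 411 of 18585 without HFD 3 to 4462 of 18953 without HFD+RE 3. With 1 library left out the median member change stayed between 0.53 and 0.76; with the length trend removed it was 0.42, and with length and GC trends removed 0.375. Without HFD+AE 3 and HFD+RE 3 together, 59 were called in HFD against NC, 58 in HFD+AE against HFD and 60 in HFD+RE against HFD+AE, with a median of 0.98 in the last. Over all 18902 genes of that fit the calls were 6258, 4253 and 4170.

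For HFD+AE against HFD the 0 calls became 11 with DESeq2, 5 without the filter, 5 with only the 2 groups compared, and 0 to 20 with 1 library left out (7 without HFD 2, 20 without HFD+RE 3), with medians from -0.78 to -0.37. Over all genes 9 of 18305 became 2211 of 18305 with DESeq2, 953 of 31348 without the filter and 649 of 17303 with only the 2 groups. They were 1691 of 18945 without HFD 2 and 1930 of 18953 without HFD+RE 3. With DESeq2 and without HFD 2, the share of members called was close to that over all genes. HFD+RE against HFD gave 0 calls in every alternative run, with medians from -0.23 to 0.18 when 1 library was left out, so its direction rests on single libraries; HFD+RE against HFD+AE gave 0 in all but the fit without both libraries, with medians from 0.27 to 0.71. With the replicate block, HFD against NC gave 0 calls and a median of 1.04, HFD+RE against HFD a median of -0.59 and HFD+RE against HFD+AE a median of -0.077 with 27 of 79 members above 0, so the direction of the last turned. Same-numbered HFD and HFD+AE libraries correlated at -0.19, 0.19 and 0.20, so these 3 numbers do not pair the samples; other groups share fewer numbers, which were not checked. The cause of these shifts was not tested. No called value changed sign in any of these fits. Depth limits Cox6b2 and Cox7a1, at 1.56 CPM or less in each library.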
